A study of Homo sapiens with 12 samples.

Results

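The genes described here are the solute carriers that HEK293T cells, a human embryonic kidney line, expressed in this series. A gene was taken when its symbol began with SLC and a number and its mean over the 8 HEK293T libraries reached 10 CPM, counts scaled to a total of 1e6 coding reads per library. Of 19305 accessions in the count files, 383 carried such a symbol and 124 reached the threshold. The remaining 259 lay under it. Just inside stood SLC20A2 at 10.3 CPM and SLC38A6 at 10.5 CPM, and just outside SLC13A3 at 9.83 CPM, SLC7A8 at 9.97 CPM and SLC12A4 at 9.98 CPM. The HEK293T level chose the members, so that level is a description here and supports nothing.

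Solute carriers are membrane proteins that move sugars, amino acids, metals, nucleosides, vitamins, ions and metabolites down a gradient or by coupling to another one. They are grouped into numbered families by sequence and substrate, and each protein sits in one membrane of the cell: the plasma membrane, where nutrients enter, the inner mitochondrial membrane, where the SLC25 carriers exchange metabolites with the cytosol, the endoplasmic reticulum (ER) and Golgi, where sugar phosphates and nucleotide sugars enter the lumen, or the lysosome, from which digestion products leave. Several plasma membrane carriers of amino acids are transcribed through ATF4, a factor whose own translation increases when stress such as arsenite leads to phosphorylation of eIF2α.

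The members spread over 40 SLC families. The largest was SLC25 with 25 members, followed by the nucleotide sugar transporter family SLC35 with 12, the zinc importers SLC39 with 9 and the amino acid carriers SLC38 with 7. By compartment, 49 members belong to the plasma membrane, 24 to the mitochondrion, 14 to the ER and Golgi, 8 to lysosomes and endosomes and 1 to the peroxisome (SLC25A17), while 26 were not assigned. SLC4A1AP and SLC7A6OS, 2 genes named for a neighbour, are not carriers and were kept because the rule takes them.

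Ribosome profiling reads the pieces of mRNA that ribosomes protect from digestion, and its counts over a coding sequence follow both mRNA amount and ribosome occupancy. The 8 HEK293T libraries came from cells exposed to sodium arsenite and carrying control or eIF2A siRNA. Each siRNA was combined with immunoprecipitation (IP) of CBP80, which binds the cap of newly exported mRNA, or of eIF4E, the cytoplasmic cap-binding protein, in set 1 and set 2. The 4 H9 libraries came from a human embryonic stem cell line with control or eIF2A shRNA in set 1 and set 2, with no IP and no arsenite in their labels. eIF2A is an initiation protein able to bring initiator tRNA to ribosomes, a role best known for eIF2. Cell line, arsenite, IP and the kind of knockdown differ together between the HEK293T and H9 libraries and cannot be told apart. No label states that the libraries of a group came from different cultures. The p-values therefore cover the spread among these libraries alone, which may be technical.

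Coding reads ran from 4331459 to 5775177 per HEK293T library and from 937990 to 1878700 per H9 library, and the upper limit behind a count of 0 (3 counts) stood at 0.519 to 3.20 CPM. The CBP80 and eIF4E files of one siRNA and set differed by 1.01 to 1.03 chi-square units per degree of freedom over all genes, that is by about the sampling noise, and by 0.937 to 1.14 over the members. They were therefore summed and counted as 1 sample, which leaves 2 HEK293T samples per siRNA. H9 libraries of one set but different shRNA labels differed by 1.04 to 1.07 units, against 2.67 to 3.31 between sets. Letters in the names of the H9 files also divide those libraries by set rather than by shRNA, and groups here follow the titles. Whether set and shRNA are exchanged in the titles was not settled. If they are, the H9 comparisons of sets and of shRNA labels given here trade places. The libraries called H9 controls would then hold both shRNAs. EIF2A itself, the targeted gene, was read at 83.2 and 83.5 CPM in the libraries labelled control siRNA and at 96.0 (set 1) and 46.7 CPM (set 2) in those labelled eIF2A siRNA. The log2 change was -0.33 ± 0.36 (SE), with an adjusted p of 0.643 by edgeR's quasi-likelihood test. It was -0.88 without eIF2A set 1 (edgeR adjusted p = 0.000242) and turned to 0.06 without eIF2A set 2. In H9 it was read at 103 CPM (set 1) and 60.9 CPM (set 2) under control shRNA and at 110.2 and 68.2 CPM under eIF2A shRNA. EIF2A reads in H9 thus also divided by set rather than by shRNA label. Lower EIF2A reads were thus seen with the knockdown label in HEK293T set 2 alone, so every direction below belongs to libraries labelled eIF2A siRNA or shRNA. The pluripotency genes DNMT3B, L1TD1, DPPA4, LIN28A and SOX2 each stood at 245 CPM or more in all 4 H9 libraries, and the list of 8 summed to 4539 to 4816 CPM there against 58.4 to 69.8 CPM in HEK293T. POU5F1 was listed at 0 in every library of both lines. The fibroblast list summed to 658 to 828 CPM in H9, through THY1, COL1A2 and COL1A1, with DCN and LUM at 0. NES, a neural progenitor gene, stood at 481 and 445 CPM in H9 set 1 and at 1065 and 1066 CPM in set 2. The other genes of its ectoderm list did not follow it. PAX6 stood at 0 in all 4 H9 libraries, and SOX1 at 3.17 and 3.73 CPM in set 1 and at 1.32 and 0 CPM in set 2.

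The members together took 0.841 to 0.849% of coding reads in the libraries labelled control siRNA, 0.794 to 0.805% in those labelled eIF2A siRNA and 1.22 to 1.27% in H9. A few genes held most of these reads, although coding length was not accounted for, so a gene's share is no measure of its level against another gene. SLC16A1, the lactate and pyruvate carrier MCT1, held 18.1% of the members' reads in the HEK293T controls and 16.7% in the H9 controls. SLC38A2, a sodium-coupled carrier of neutral amino acids, held 7.67% and 6.38%, and SLC3A2, the heavy chain that escorts amino acid exchangers to the surface, held 7.48% and 4.91%. The mitochondrial phosphate carrier SLC25A3 followed with 3.95% and 5.63%. The 10 members with the most reads made up 51.7% of the total in HEK293T and 55.9% in H9. By compartment, plasma membrane carriers held 64.3 to 65.5% of the members' reads in the summed HEK293T samples and 68.5 to 72.0% in H9, and mitochondrial carriers 15.5 to 17.6% and 16.3 to 19.1%. Carriers of the ER and Golgi held 6.56 to 7.52% in HEK293T but 2.81 to 3.12% in H9.

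With the eIF2A siRNA label, 15 of the 124 members fell and 4 rose in HEK293T, and all 19 had libraries that did not overlap between the siRNA groups. Non-overlap was not counted over all genes. It rests on the same values as the calls, so here and below it describes them and adds no support. Among those that fell were carriers of sugar phosphate, zinc, vitamins, mitochondrial phosphate and dicarboxylates, taurine and amino acids, beside SLC50A1, SLC75A1, SLC16A14 and SLC35F2. Of the 12331 genes tested, 6.29% fell, 6.15% rose and 12.4% passed in either direction, against 12.1, 3.23 and 15.3% of the members. The genes tested include ones with fewer reads than the members, so the shares are not at like depth. Among the 9998 genes with a mean count of at least 50, 779 fell and 782 rose, against 17 and 4 of the 124 members. The median log2 change was -0.11 over the members and 0.00 over all genes, and 81 members lay below 0, as did 49.5% of all genes. Comparing CPM ratios set by set without further scaling, 47 members were lower in both sets, 40 higher in both and 37 moved in opposite directions. Over the 8479 genes of at least 10 CPM, 28.9% were lower in both sets and 47.6% higher in both, against 37.9 and 32.3% of the members.

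Like the calls over all genes tested, the count of 19 rested on single libraries, which is not particular to the members. It was 12 without control set 1, 7 without eIF2A set 1 and 22 without eIF2A set 2, and without control set 2 SLC37A4 alone passed. SLC39A1, SLC25A3, SLC5A6, SLC6A6 and SLC75A1 lost the call without control set 2 and kept it without any other single library. DESeq2 called 9 members, 1 higher and 8 lower, where 218 of all 16622 genes were higher and 441 lower. Scaling by library size alone put the median of all genes at 0.09 and that of the members at -0.02, with 4 members higher and 9 lower, while the split over all genes turned from 758 higher and 776 lower to 739 higher and 294 lower. Reads that had a single place in the genome but lay outside coding sequences moved with the siRNA label, their share being 51.0 and 51.1% against 39.9 and 40.1% in set 1 and at 42.2 and 42.4% against 35.2 and 35.3% in set 2. Its part in these results was not tested.

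**Figure D1:**
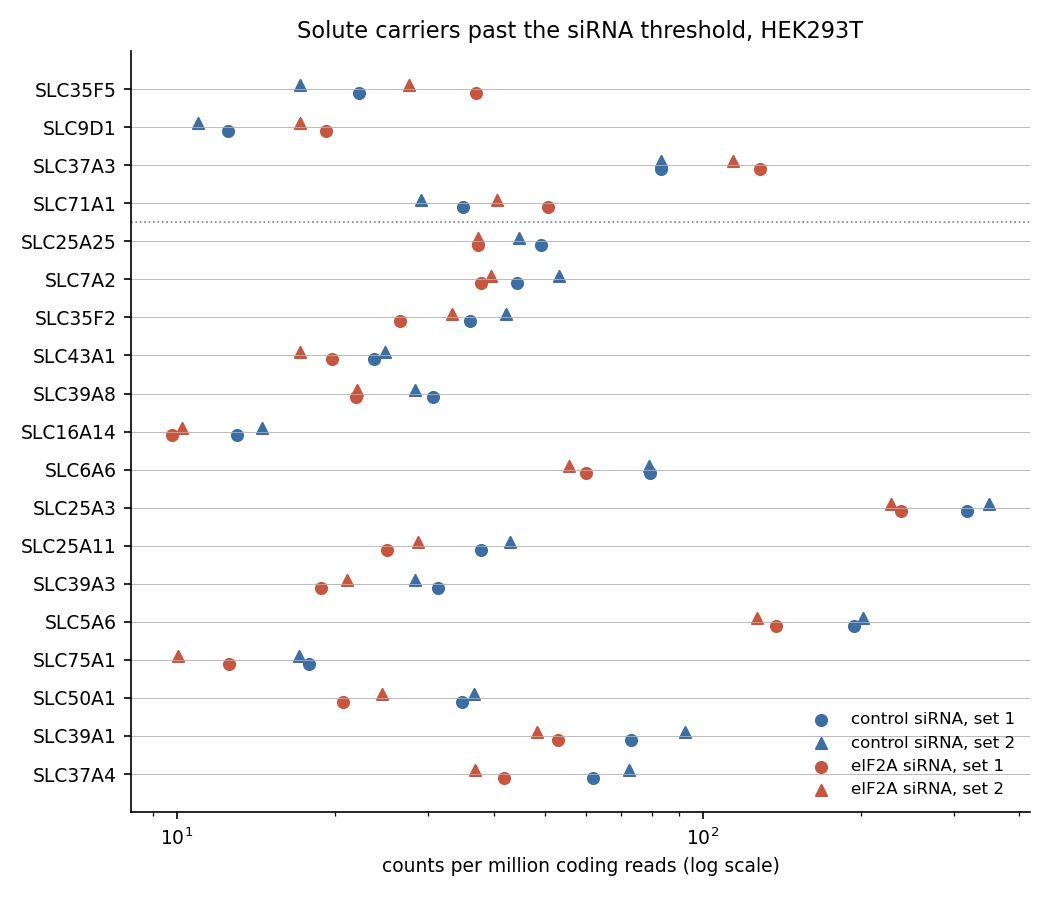
CPM (log scale) of the 19 members past the siRNA threshold in HEK293T, 4 higher above the dotted line and 15 lower below it; circles are set 1, triangles set 2, blue the control siRNA and red the eIF2A siRNA label, each point the sum of the CBP80 and eIF4E files. In each gene both red points lie on one side of both blue points, with SLC37A4 going from 61.9 and 72.3 CPM to 41.9 and 36.9 CPM.

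The largest fall was that of SLC37A4 (NM_001164277), which carries glucose 6-phosphate into the ER, where the last step of glucose release takes place. It was read at 61.9 and 72.3 CPM in the control samples of sets 1 and 2 and at 41.9 and 36.9 CPM in the eIF2A samples. The groups did not overlap, and the log2 change was -0.86 ± 0.14 (SE, n = 2 against 2, edgeR adjusted p = 1.56e-05). Single CPM ratios were 0.677 in set 1, with a 95% counting interval of 0.598 to 0.765, and 0.510 in set 2, with an interval of 0.450 to 0.577. SLC37A4 passed the threshold with every library left out in turn, the change running from -0.99 to -0.73. Its gene span overlaps that of TRAPPC4, and the strand setting of the counts is not given in the sources used here. Its relative SLC37A3 (NM_207113) moved the other way, from 83.2 and 83.3 CPM to 128 and 114 CPM, a change of 0.45 ± 0.13 (edgeR adjusted p = 0.0164). SLC37A3 was lost from the calls without control set 1, control set 2 or eIF2A set 1.

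Zinc importers of the SLC39 family gave 3 of the falls among 9 members, with a family median of -0.39 and 8 of 9 members below 0 (7 of 9 by library sizes alone). SLC39A1 (ZIP1, NM_014437), a zinc importer of the cell surface, was read at 73.0 and 92.5 CPM in the controls and at 53.0 and 48.4 CPM with the eIF2A label. Its groups did not overlap, the change being -0.80 ± 0.14 (edgeR adjusted p = 5.01e-05), and it lost the call without control set 2 (-0.60, adjusted p = 0.120). SLC39A3 (ZIP3, NM_213568), another surface zinc importer, went from 31.4 and 28.3 CPM to 18.7 and 21.0 CPM (-0.67 ± 0.16). SLC39A8 (ZIP8, NM_001135147), which also carries manganese, went from 30.7 and 28.3 CPM to 21.9 and 22.0 CPM (-0.51 ± 0.16). Both sets showed both falls, with edgeR adjusted p of 0.00255 for SLC39A3 and 0.0205 for SLC39A8, and both calls were lost without control set 1, control set 2 or eIF2A set 1. The other 6 importers did not pass: SLC39A4 stood at -0.40, SLC39A11 at -0.39, SLC39A14 at -0.31, SLC39A10 at -0.25, SLC39A6 at -0.08 and SLC39A9 at 0.04. None of the 5 zinc exporters of the SLC30 family passed, and their median was -0.03. The largest change among them was that of SLC30A5, a zinc carrier of the secretory pathway, at 22.8 and 18.7 CPM against 30.1 and 23.2 CPM (0.26 ± 0.16, edgeR adjusted p = 0.302). SLC30A1, the exporter of the plasma membrane, was read at 12.8 and 10.6 CPM in the controls and at 13.1 and 10.4 CPM with the eIF2A label. The copper importer SLC31A1 stood at 175 and 169 CPM against 177 and 185 CPM (-0.01 ± 0.13).

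Of the 24 mitochondrial carriers, 3 fell and none rose, with a median of -0.17 and 17 below 0 (14 by library sizes alone). SLC25A3 (NM_213611), which imports the phosphate used for ATP synthesis, was read at 318 and 350.0 CPM in the controls and at 238 and 228 CPM with the eIF2A label. The change was -0.61 ± 0.14 (edgeR adjusted p = 0.00133), with no overlap. SLC25A11 (NM_003562), the exchanger of oxoglutarate for malate in the malate-aspartate shuttle, went from 37.9 and 42.9 CPM to 25.1 and 28.7 CPM (-0.67 ± 0.15, edgeR adjusted p = 0.00145), and was lost without control set 2 or eIF2A set 1. SLC25A25, a calcium-regulated carrier of ATP-magnesium and phosphate that is outside the 12 largest falls, went from 49.2 and 44.6 CPM to 37.4 and 37.3 CPM. Just outside the threshold lay the ADP/ATP carrier SLC25A5 (-0.39, edgeR adjusted p = 0.0505) and the aspartate-glutamate carrier SLC25A13 (-0.37, 0.0549), both with non-overlapping groups and chosen here after their values were seen. SLC25A36, a pyrimidine nucleotide carrier, stood at 40.2 and 39.8 CPM against 60.0 and 48.5 CPM (0.35, adjusted p = 0.0954). SLC25A6, a close copy of SLC25A5 and SLC25A4, was listed at 0 in all 12 libraries. Reads with more than 1 alignment were not counted, so the levels of such copies are uncertain.

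Plasma membrane carriers gave 7 falls and no rise among 49 members, with a median of -0.11 (-0.02 by library sizes alone). SLC5A6 (NM_021095), the sodium-dependent carrier of biotin and pantothenate, was read at 194 and 201 CPM in the controls and at 138 and 127 CPM with the eIF2A label, a change of -0.67 ± 0.14 (edgeR adjusted p = 0.000390). SLC6A6 (NM_003043), the taurine carrier, went from 79.4 and 79.0 CPM to 59.9 and 55.7 CPM (-0.54 ± 0.14, edgeR adjusted p = 0.00444). In both genes the eIF2A samples lay under both controls. The other falls in this membrane, beside the 3 SLC39 genes, were those of 2 amino acid carriers. SLC43A1 (LAT3), which carries large neutral amino acids, went from 23.7 and 24.8 CPM to 19.7 and 17.1 CPM (-0.49 ± 0.16, edgeR adjusted p = 0.0360). That call was lost with each library left out in turn (adjusted p from 0.0993 to 0.419), with library sizes alone and with DESeq2. The other was SLC7A2 (CAT2), a carrier of arginine and lysine outside the 12 largest falls, which went from 44.2 and 53.4 CPM to 37.9 and 39.5 CPM and lost its call without control set 2 or eIF2A set 1. The members with the most reads did not pass. SLC16A1 stood at 1545 and 1514 CPM in the controls and at 1324 and 1406 CPM with the eIF2A label (-0.25 ± 0.15, edgeR adjusted p = 0.274), and SLC38A2 at 695 and 602 CPM against 613 and 616 CPM. The nucleoside carrier SLC29A1 lay just outside the threshold (-0.41, adjusted p = 0.0523).

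Of 9 amino acid carriers linked to ATF4, 2 fell and none rose, with a list median of -0.16, where 6.29% of all genes tested fell and 6.15% rose. The falls were those of SLC43A1 and SLC1A4, an alanine, serine and cysteine carrier that is under the member threshold (5.63 and 5.68 CPM against 4.18 and 2.78 CPM), and both lost the call with each library left out in turn. SLC7A5, the light chain of the leucine exchanger LAT1, stood at 67.2 and 70.1 CPM against 92.7 and 77.5 CPM (0.22, edgeR adjusted p = 0.30). Its heavy chain SLC3A2 stood at 592 and 673 CPM against 579 and 624 CPM. SLC1A5, a glutamine carrier, stood at 96.2 and 100.2 CPM against 118 and 106 CPM, and the arginine carrier SLC7A1 at 265 and 254 CPM against 259 and 269 CPM. Under the member threshold, SLC7A3 stood at 5.01 and 6.21 CPM against 4.28 and 4.31 CPM (-0.46 ± 0.25) and the glycine carrier SLC6A9 at 4.48 and 5.58 CPM against 6.22 and 4.76 CPM (0.04 ± 0.25), and neither passed. None of the 7 SLC38 members passed, although 6 of them lay below 0, and the largest change was that of SLC38A12, at 25.6 and 28.1 CPM against 22.6 and 22.0 CPM (-0.35 ± 0.16, edgeR adjusted p = 0.133). Among the 4 SLC12 members SLC12A9 moved most, at 21.2 and 18.9 CPM against 17.2 and 15.0 CPM (-0.41 ± 0.17, edgeR adjusted p = 0.10). None of the 8 lysosomal and endosomal members passed either, with a median of 0.03. Among them were SLC38A9, the arginine sensor of the lysosome (13.1 and 15.1 CPM against 14.8 and 16.7 CPM), and SLC36A1, a proton-coupled amino acid exporter (9.58 and 8.10 CPM against 12.8 and 11.4 CPM).

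Members not assigned to a compartment held 4 falls and 3 of the 4 rises. SLC50A1 (NM_001287591), a sugar carrier of the SWEET type, was read at 34.9 and 36.6 CPM in the controls and at 20.7 and 24.5 CPM with the eIF2A label (-0.74 ± 0.16, edgeR adjusted p = 0.000651). SLC75A1 (NM_001120), formerly MFSD10, went from 17.8 and 17.1 CPM to 12.5 and 10.1 CPM (-0.72 ± 0.18, edgeR adjusted p = 0.00434). The groups of both genes stood apart. SLC16A14, a relative of SLC16A1 with no settled substrate, went from 13.0 and 14.5 CPM to 9.78 and 10.2 CPM (-0.54 ± 0.19), and SLC35F2, also outside the 12 largest falls, from 36.0 and 42.2 CPM to 26.6 and 33.3 CPM (-0.46 ± 0.15). SLC25A25, SLC7A2 and SLC35F2 were named after their values were seen. SLC50A1 and SLC35F2 lost the call without control set 2 or eIF2A set 1, and SLC16A14 and SLC25A25 also without control set 1. Among the rises, SLC35F5 (NM_001330314) moved most, from 22.2 and 17.2 CPM to 37.0 and 27.6 CPM (0.62 ± 0.16, edgeR adjusted p = 0.00627). DESeq2 placed SLC35F5 at an adjusted p of 0.0576, and edgeR lost it without control set 2 or eIF2A set 1. SLC9D1 (formerly TMCO3), a protein related to sodium-proton exchangers, went from 12.5 and 10.9 CPM to 19.2 and 17.1 CPM (0.54 ± 0.18), and SLC71A1 (formerly MFSD14A) from 35.0 and 29.1 CPM to 50.6 and 40.6 CPM (0.42 ± 0.15). Neither gene passed without control set 1, control set 2 or eIF2A set 1, nor did SLC9D1 without eIF2A set 2. Of the 12 SLC35 members, SLC35F2 fell, SLC35F5 rose and the other 10 did not pass, among them the nucleotide sugar carriers SLC35A1, SLC35A3, SLC35B4 and SLC35D1 of the ER and Golgi. The spans of SLC39A1, SLC5A6, SLC6A6 and SLC9D1 overlap other coding genes (CREB3L4, ATRAID, GRIP2 and DCUN1D2), as do the spans of 26 members in all. SLC4A1AP, not a carrier, showed the largest change among the SLC4 symbols, at 113 and 117 CPM against 149 and 152 CPM (0.30 ± 0.13, edgeR adjusted p = 0.123).

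**Figure D2:**
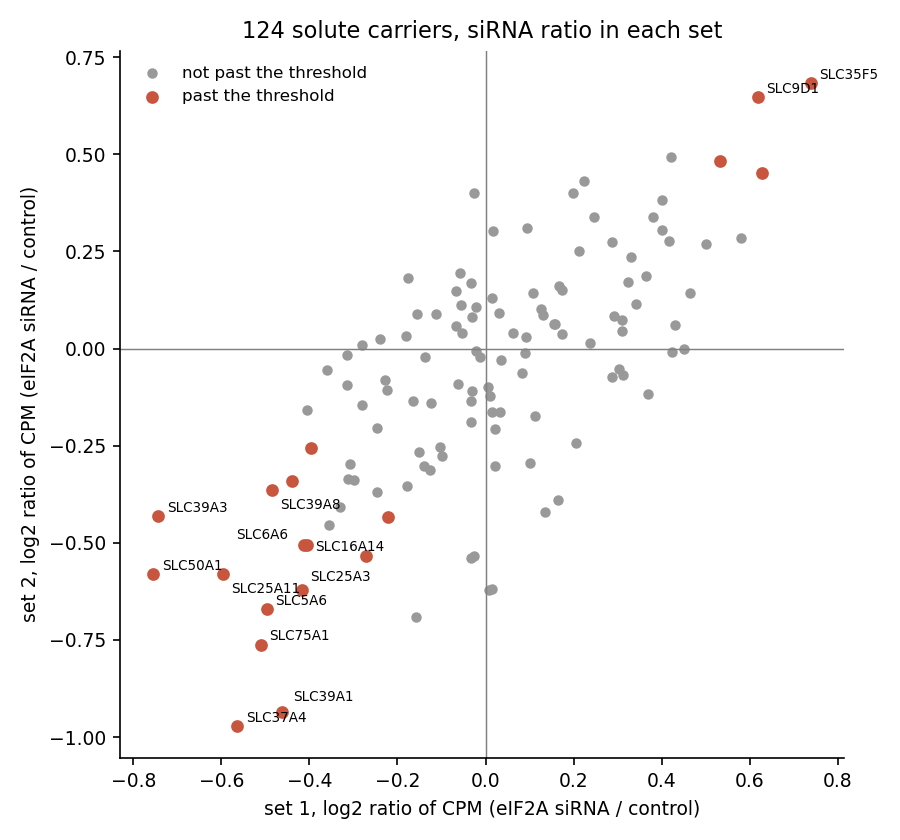
Log2 ratio of CPM, eIF2A over control siRNA, in set 1 (x axis) and set 2 (y axis) for the 124 members, without further scaling; red points passed the threshold. All 19 red points have the same sign in both sets, SLC37A4 and SLC39A1 lie lowest in set 2, and 37 members have opposite signs.

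**Figure D3:**
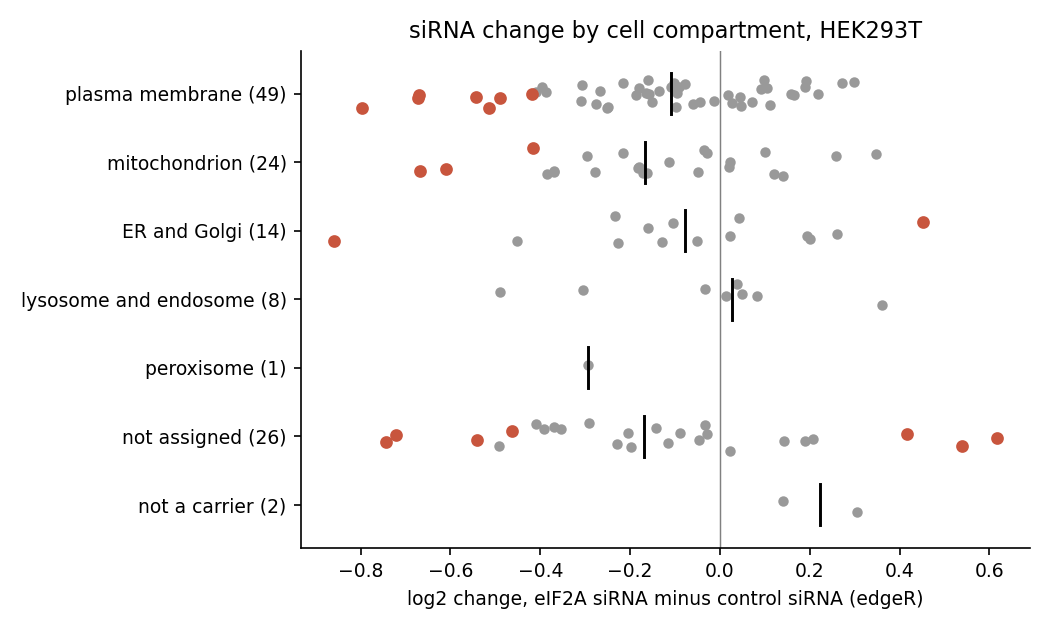
Log2 change fitted by edgeR, eIF2A minus control siRNA, of each member by cell compartment, with the number of members in brackets, the group median as a black line and members past the threshold in red. Red points on the left number 7 in the plasma membrane and 3 in the mitochondrion, and lysosomes and endosomes hold none.

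Transcription starts of 104 members were found in RefSeq's table for GRCh38.p14. The 250 bases before each start were searched on both strands for TGATGNAA, the core of the amino acid response element that ATF4 binds with a partner. TGCNCNC was searched as well, a looser spelling of the core of the metal response element bound by MTF1, the zinc-sensing factor. It also matches letters outside that core, so its shares are not shares of metal response elements. TGATGNAA was found before 1.95% of the members' 154 starts and 3.14% of all 35116 starts, and TGCNCNC before 51.9% and 49.1%. Of the members with a start in the table, SLC25A11, SLC1A5 and SLC1A3 held the first motif. The sequences below show the 150 bases before the start for the member that fell and held TGATGNAA (SLC25A11), for the glutamine carrier SLC1A5, and for the zinc importer SLC39A3, which fell, beside the zinc exporter SLC30A1, which did not pass. Each runs 5′ to 3′ on the minus strand, from chr17:4940047-4940196, chr19:46784815-46784964, chr19:2740077-2740226 and chr1:211579162-211579311 in that order. Capitals mark the motif on either strand, TGATGNAA in SLC25A11 and SLC1A5 and TGCNCNC in SLC39A3 and SLC30A1.
SLC25A11: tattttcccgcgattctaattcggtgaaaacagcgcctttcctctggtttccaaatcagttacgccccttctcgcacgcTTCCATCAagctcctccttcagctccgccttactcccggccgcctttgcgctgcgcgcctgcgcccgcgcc
SLC1A5: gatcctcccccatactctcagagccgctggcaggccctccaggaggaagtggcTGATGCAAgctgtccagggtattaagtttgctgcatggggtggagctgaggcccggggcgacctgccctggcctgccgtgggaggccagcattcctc
SLC39A3: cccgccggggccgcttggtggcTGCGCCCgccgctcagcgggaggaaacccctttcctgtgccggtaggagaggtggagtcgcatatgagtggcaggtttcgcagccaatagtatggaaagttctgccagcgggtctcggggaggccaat
SLC30A1: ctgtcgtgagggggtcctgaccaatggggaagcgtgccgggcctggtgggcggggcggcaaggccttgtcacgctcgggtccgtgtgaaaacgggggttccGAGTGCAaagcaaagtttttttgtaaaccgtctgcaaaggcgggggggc
A match describes letters in this window and is no evidence of binding. SLC1A5, with the first motif 97 bases before one of its starts, stood at 0.10 ± 0.13 with the eIF2A siRNA label, while SLC25A11, with the motif 71 bases before its start, stood at -0.67 ± 0.15.

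Transporters outside the SLC symbols were counted from lists, again beside 6.29% of all genes tested that fell and 6.15% that rose, and each call of these lists was lost without control set 2. Of 33 tested genes listed as carriers under other names, 4 fell and 1 rose. The serine carrier of mitochondria SFXN1 (294 and 314 CPM against 232 and 234 CPM) and its relatives SFXN2 and SFXN3 fell. MAGT1 (745 and 747 CPM against 551 and 635 CPM) fell too, and the sphingosine 1-phosphate exporter SPNS2 rose. The 33 include SLC61A1, which has an SLC symbol, is itself a member and did not pass. Among 20 subunits and partners of the V-ATPase, the proton pump of lysosomes and endosomes, ATP6V0B, ATP6V0E1 and ATP6AP1 fell and none rose. ATP6V0B went from 105 and 131 CPM to 88.4 and 85.8 CPM (-0.53 ± 0.14, edgeR adjusted p = 0.00569). Of 25 P-type ATPases and beta subunits of the sodium pump, 2 fell, among them the calcium pump ATP2B4, and ATP11B and ATP9A rose. Of 25 ABC transporters, ABCC2, ABCA5 and ABCG1 rose and none fell. None of the 12 partner proteins passed, including BSG, the escort of SLC16A1, at 1071 and 1259 CPM against 934 and 1077 CPM (-0.30, edgeR adjusted p = 0.179).

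Between the IP labels no member differed past the threshold. The comparison asks whether ribosome-protected reads differ between the files labelled CBP80 and eIF4E. It cannot separate mRNA amount from ribosome load, so it does not show equal loads. Of 11778 genes tested over the 4 matched pairs, 6 passed (0.0509%, all higher with the eIF4E label), while 588 genes (4.99%) and 3 members had an unadjusted p under 0.05. DESeq2 called no member. SLC8A1, the sodium-calcium exchanger, had the smallest p among the members, at 14.4, 10.3, 15.4 and 13.1 CPM with the CBP80 label against 19.0, 15.7, 14.1 and 15.8 CPM with the eIF4E label in the same order of pairs. Its change was 0.28 ± 0.12 (edgeR adjusted p = 0.942), and 3 of 4 pairs were higher. SLC35B4, a Golgi carrier of nucleotide sugars, stood at 43.6, 40.8, 41.6 and 38.2 CPM against 45.3, 44.8, 46.8 and 45.5 CPM, a change of 0.15 ± 0.07 with 4 of 4 pairs higher (edgeR adjusted p = 0.972). The third was SLC39A11, at 0.21 ± 0.10. The members that fell most with the siRNA label gave like values in both files of each pair. SLC37A4, for example, stood at 63.5 and 60.3 CPM (CBP80 and eIF4E) in control set 1 and at 37.8 and 36.0 CPM in eIF2A set 2.

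The siRNA change did not differ between IP labels for any member past the threshold. Of 11778 genes 0 passed (0%), with 530 (4.5%) at an unadjusted p under 0.05, 3 of them members, and DESeq2 called no member. SLC30A1 came nearest, its siRNA change being lower by 0.72 ± 0.26 on the log2 scale with the eIF4E label (interaction -0.72, edgeR adjusted p = 0.995). It stood at 12 and 8.51 CPM against 15.0 and 11.4 CPM in the CBP80 files (control, then eIF2A siRNA) and at 13.7 and 13.2 CPM against 11.2 and 9.52 CPM in the eIF4E files. SLC4A2, a chloride-bicarbonate exchanger, gave an interaction of 0.20 ± 0.08 and SLC35F2 one of 0.33 ± 0.15.

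Set 2 and set 1 of HEK293T did not differ past the threshold for any member in the main scaling. Of 12331 genes 100 passed (0.811%), while 2240 genes (18.2%) and 18 members had an unadjusted p under 0.05 and DESeq2 called none. RLE scaling called SLC25A5, SLC25A14 and SLC35F2, all higher in set 2, library sizes alone called 6 others, all lower, and a mean count of at least 50 called SLC20A1. Over all genes these settings called 312 higher and 338 lower, 170 and 751, and 241 and 300, in that order. SLC20A1, a phosphate carrier, stood at 76.5 and 85.9 CPM in set 1 and at 60.2 and 67.3 CPM in set 2 (-0.28 ± 0.09, edgeR adjusted p = 0.113).

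In H9 no member changed past the threshold with the eIF2A shRNA label. Of the 9751 genes tested 0 passed (0%), 84 (0.861%) had an unadjusted p under 0.05, and 1 of these was among the 114 members tested. DESeq2 called no member. That gene was SLC26A11, an anion carrier, at 24.7 and 27.8 CPM in the controls and at 17.6 and 9.59 CPM with the eIF2A label (-0.86 ± 0.33). SLC36A1 stood at 6.97 and 6.62 CPM against 15.4 and 8.53 CPM, and SLC39A6, a zinc importer, at 68.5 and 70.8 CPM against 84.1 and 95.9 CPM. The genes that fell most in HEK293T showed other values here. SLC37A4 stood at 43.1 and 41.0 CPM in the H9 controls and at 45.2 and 48.0 CPM with the eIF2A shRNA label (0.14 ± 0.20). SLC39A1 stood at 224 and 216 CPM against 247 and 217 CPM (0.08 ± 0.13), and SLC25A3 at 698 and 707 CPM against 752 and 676 CPM (0.02 ± 0.11). The difference between the cell lines was tested directly, as a test added after the data were seen, and no gene of 12911 passed (0%), with 1059 genes (8.2%) and 13 members at an unadjusted p under 0.05. SLC39A1 came nearest, its change being 0.87 ± 0.22 higher in H9 (edgeR adjusted p = 0.206). SLC37A4 followed with 0.98 ± 0.27 (0.294), then SLC25A3 with 0.62 ± 0.19 (0.427). A difference in response between the lines was therefore not shown for any member. The test follows the titles. If set and shRNA are exchanged there for H9, it sets the HEK293T siRNA change against a change between H9 sets.

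Between the H9 sets, as the titles give them, 8 members were higher and 7 lower in set 2, of 114 tested, where the shRNA labels gave 0 calls. These counts belong to the other comparison if set and shRNA are exchanged in the titles. Of all 9751 genes 7.45% were higher, 7% lower and 14.4% either way, against 7.02, 6.14 and 13.2% of the members, so the members' count is near the background. The 2 libraries of a set differed by about counting noise, which sets the spread behind these p-values. DESeq2 called 4 members, and of 14661 genes 67 higher and 58 lower. In fits without the shRNA term, added after the data were seen, the count was 7 without control set 2 and 10 to 12 without any other single library. SLC16A1, SLC38A2, SLC38A1, SLC7A5 and SLC25A39 passed in all 4 of these fits. Plasma membrane carriers held 6 of those higher and 4 of those lower in set 2, and mitochondrial carriers 1 and 3, with a mitochondrial median of -0.26. SLC16A1, the lactate carrier, stood at 1858 and 1842 CPM (control and eIF2A shRNA) in set 1 and at 2332 and 2319 CPM in set 2 (0.35 ± 0.03, edgeR adjusted p = 1.29e-34). SLC38A2 stood at 699 and 683 CPM in set 1 and at 897 and 962 CPM in set 2 (0.45 ± 0.04, edgeR adjusted p = 2.62e-21). Its close relative SLC38A1, also a carrier of neutral amino acids, went the other way, from 262 and 296 CPM to 171 and 199 CPM (-0.57 ± 0.08, edgeR adjusted p = 1.59e-09). The leucine exchanger SLC7A5 stood at 155 and 153 CPM in set 1 and at 84.7 and 94.9 CPM in set 2 (-0.77 ± 0.12, edgeR adjusted p = 1.12e-08).

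Among the remaining H9 calls, the glucose carrier SLC2A3 was higher in set 2, at 574 and 607 CPM against 713 and 656 CPM, and so was the taurine carrier SLC6A6, at 188 and 171 CPM against 247 and 212 CPM. Higher as well were the myo-inositol carrier SLC5A3 (19.0 and 25.0 CPM against 34.4 and 35.2 CPM), the potassium-chloride cotransporter SLC12A7 (48.2 and 52.2 CPM against 62.9 and 78.9 CPM) and SLC25A25 (9.51 and 18.1 CPM against 26.5 and 22.4 CPM). Lower in set 2 were 3 mitochondrial carriers: the ornithine carrier SLC25A15 (26.6 and 21.8 CPM against 14.6 and 8.53 CPM), the glutathione carrier SLC25A39 (95.1 and 97.4 CPM against 58.2 and 62.9 CPM) and the glutamate carrier SLC25A22 (57.7 and 59.1 CPM against 33.1 and 43.7 CPM). The metal importer SLC39A14 and the nucleoside carrier SLC29A1 were lower too, each with a change of -0.24 ± 0.07. EIF2A was lower in set 2 as well (-0.71 ± 0.14, edgeR adjusted p = 3.18e-05), and NES, but not PAX6 or SOX1, was higher by the values given above. Their part in the members' differences was not tested.

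**Figure D4:**
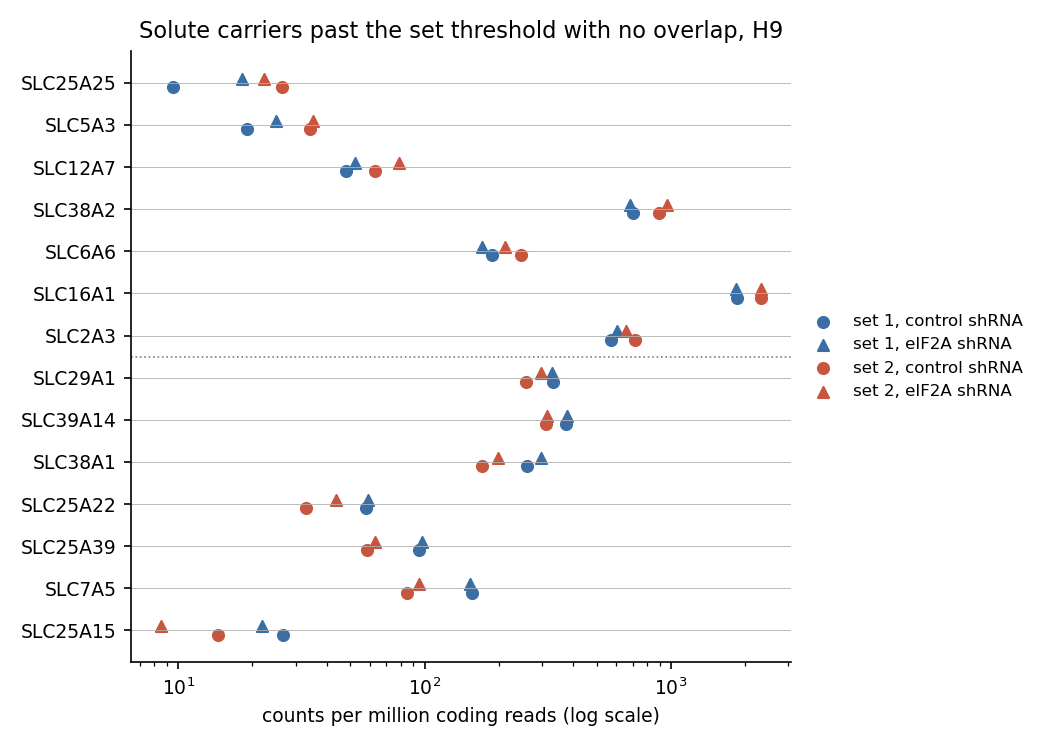
CPM (log scale) of the 14 members that passed between sets in H9 and whose sets did not overlap, 7 higher in set 2 above the dotted line and 7 lower below it; blue is set 1, red set 2, circles control shRNA and triangles eIF2A shRNA. SLC16A1 has the highest values, going from 1858 and 1842 CPM to 2332 and 2319 CPM, and SLC25A15 shows the largest difference of those lower in set 2.

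Across cell lines the control libraries are compared as a description, with no test, since the members were chosen by their HEK293T level. The H9 controls follow the titles and would hold both shRNAs if set and shRNA are exchanged there. At least 2-fold higher in H9, with no overlap of controls, were 32 members (25.8%, against 17.1% of the 8479 genes of at least 10 CPM in HEK293T), and at least 2-fold lower were 27 (21.8%, against 25.2%). With TMM scaling over both lines the counts became 22 and 34, so more members were then lower than higher. The shares of the 8479 genes were not counted with that scaling. Whether the members differ from other genes was therefore not shown. Lysosomes and endosomes held 4 higher members of 8 and none lower, the plasma membrane 16 higher and 9 lower of 49, the mitochondrion 7 and 9 of 24, and the ER and Golgi 1 and 5 of 14. In all, 104 members reached 10 CPM in H9 and 20 did not.

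Among the members higher in H9, glucose carriers had the largest ratios. SLC2A3 (GLUT3) stood at 24.4 and 27.9 CPM in the HEK293T controls and at 574 and 713 CPM in the H9 controls, 24.6-fold higher. SLC2A1 (GLUT1) stood at 45.5 and 43.3 CPM against 422 and 459.9 CPM, 9.94-fold higher. Both stayed above 8-fold with TMM scaling, at 20.7-fold and 8.33-fold. SLC2A14, a close copy of SLC2A3, shares sequence with it, so its level is uncertain where reads align to both. Choline carriers followed, with SLC44A2 at 26.9 and 18.6 CPM against 179 and 204 CPM (8.42-fold) and SLC44A1 at 11.8 and 8.84 CPM against 73.6 and 74.8 CPM (7.19-fold). The nucleoside carrier SLC29A1 stood at 39.7 and 42.8 CPM against 331 and 257 CPM (7.13-fold), and the metal importer SLC39A14 at 54.6 and 56.6 CPM against 375 and 312 CPM (6.18-fold). The glutamine carrier SLC1A5 was 5.35-fold higher, the ADP/ATP carrier SLC25A4 6.09-fold, the citrate carrier SLC25A1 4.50-fold, SLC12A7 4.38-fold, SLC75A1 3.97-fold and the lysosomal arginine sensor SLC38A9 3.72-fold. SLC3A2, by contrast, stood at 592 and 673 CPM against 613 and 613 CPM, and SLC38A2 at 695 and 602 CPM against 699 and 897 CPM.

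Other members had few reads in H9. The intestinal-type zinc importer SLC39A4 stood at 32.9 and 42.2 CPM in HEK293T and at 1.27 and 0 CPM in H9, where 2 reads in all were counted, a pooled ratio of 57.3 with a 95% counting interval of 15.8 to 474. SLC9B2, a sodium-proton antiporter, stood at 14.6 and 14.2 CPM against 0.634 and 0.662 CPM, also 2 reads (22.3, interval 6.11 to 185). SLC35A4 stood at 28.7 and 29.4 CPM against 2.54 and 0.662 CPM, and its span overlaps another coding gene. The mitochondrial carrier SLC25A30 stood at 48.0 and 48.9 CPM against 8.24 and 0.662 CPM (10.9-fold lower). The glial-type glutamate carrier SLC1A3 stood at 131 and 127 CPM against 10.8 and 15.9 CPM (9.69-fold lower), and the neutral amino acid carrier SLC6A15 at 163 and 144 CPM against 20.3 and 27.8 CPM (6.38-fold lower). Others of the 12 with the largest ratios were SLC10A7, SLC16A14, SLC44A5, SLC35G2 and SLC25A14, from 4.96-fold to 8.79-fold lower.

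**Figure D5:**
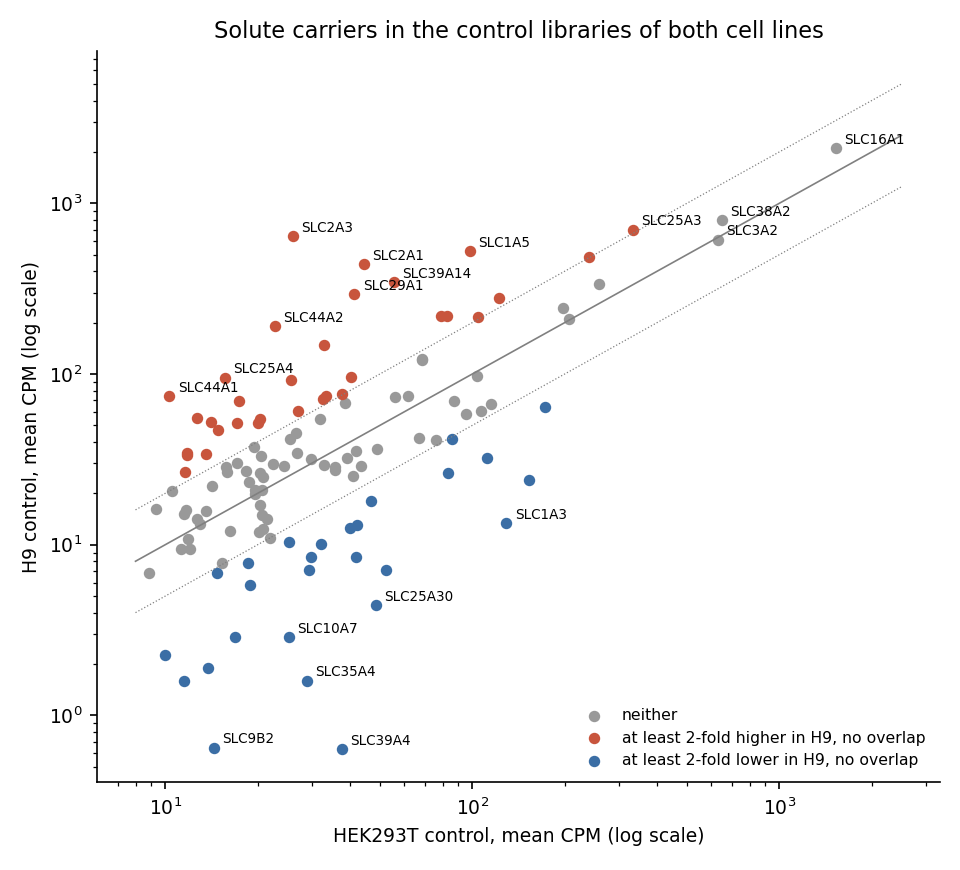
Mean CPM of the 124 members in the control libraries of HEK293T (x axis) and H9 (y axis), both on log scales, with the line of equality and dotted lines at 2-fold; red members were at least 2-fold higher in H9 and blue ones at least 2-fold lower, with no overlap of controls. SLC2A3 and SLC2A1 lie farthest above the line and SLC39A4 and SLC9B2 farthest below it.

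H9 expressed carriers that the HEK293T threshold leaves out: 41 SLC genes reached a mean of 10 CPM in H9 alone. Of the 6 with the largest ratio, 4 carry amino acids. SLC7A3 (CAT3), a carrier of arginine and lysine, stood at 4.97 CPM on average in HEK293T and at 396 to 420.2 CPM in the 4 H9 libraries. SLC7A8 (LAT2), a light chain for neutral amino acids, stood at 9.97 CPM and at 376 to 389 CPM. SLC38A5, a carrier of glutamine and serine, stood at 0.643 CPM and at 100.1 to 119 CPM, and SLC38A4 at 0.324 CPM and at 17.1 CPM on average. The nucleobase carrier SLC43A3 stood at 0.478 CPM and at 46.9 to 57.0 CPM, and the lysosomal peptide carrier SLC15A3 at 0.0743 CPM and at 14.4 to 24.5 CPM. These 6 genes were chosen by their ratio, so the separation of their H9 from their HEK293T libraries follows from that choice and supports nothing. The count of 41 was not made over all genes and is a description.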

How the data were processed

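The authors deposited whole-number counts of ribosome-protected reads per coding sequence, not normalized, 1 RefSeq accession per row. The submitters' processing notes name cutadapt, the aligner STAR 2.5.2b and the build hg19. The labels' protocols name TRIzol for extraction and the TruSeq small RNA kit. The counter, its strand setting, the annotation and any removal of ribosomal RNA reads are not stated by the labels or files used. Rows that name no gene held 87.5 to 89.5% of counts in HEK293T and 96.2 to 96.5% in H9. Most of them were non-unique alignments. They stayed out of all totals.

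Of 19305 accessions, 18888 were named through RefSeq's table of GRCh38.p14. CPM of single samples use the total of coding reads. The CBP80 and eIF4E files of each siRNA and set were summed for the siRNA and set comparisons. Tests used R 4.3.3 with edgeR 4.0.16 (filterByExpr, TMM, estimateDisp, robust glmQLFit, glmQLFTest), Benjamini-Hochberg adjustment over all genes tested and a threshold of 0.05. The fits had 2 residual degrees of freedom for HEK293T siRNA and for H9 shRNA, and 1 for each set comparison, with the spread shared across genes. The code was tested on simulated data. Intervals are 95% Poisson or binomial ones and cover counting error only. Compartments were assigned from general knowledge of each protein.

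The members and lists were chosen with earlier results of these data known. Named genes are the 12 largest falls and rises past the siRNA threshold, the 3 of smallest p where none passed, up to 8 largest each way between sets, the 12 largest ratios each way between lines, the 6 carriers of largest ratio in H9 alone and the genes at the threshold. Genes named by level per coding length could not be taken, because coding lengths were not used here. Alternatives were RLE scaling, library sizes alone, DESeq2 1.42.0, testing without a filter on counts, a minimum mean count of 50, each library left out, the set number as a block, and the IP files as separate samples. Samples follow the titles, and set numbers were not taken to pair samples in the main fit, since no label ties a set number to a culture or a day. Some genes that the rules name are not reported here.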

Additional observations from a re-analysis of the deposited data

Results flagged for a closer look

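Reads outside coding sequences, which no comparison of the members uses, took a larger share of uniquely placed reads in every library labelled eIF2A siRNA than in its control. In set 1 the share was 51.0% with the CBP80 label and 51.1% with the eIF4E label, against 39.9 and 40.1% in the controls. In set 2 it was 42.2 and 42.4%, against 35.2 and 35.3%. Whether this share had a part in the changes of SLC37A4, SLC39A1 and the other members was not tested.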

How the results depend on the processing

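The number of members past the siRNA threshold, 19, became 9 with DESeq2, 7 with the CBP80 files and 10 with the eIF4E files taken as separate samples in the fit of 8, and ran from 1 to 22 with single libraries left out. With the set number as a replicate block it was 36, 6 higher and 30 lower. Over all genes, 758 were higher and 776 lower in the main fit, and 1461 and 1529 with the block. DESeq2 gave 218 and 441, the CBP80 files 182 and 291 and the eIF4E files 146 and 235. Calls over all genes also changed with single libraries left out. Deviations of same-numbered HEK293T samples correlated at 0.52 over 6626 genes and those of H9 at 0.55 over 6905 genes. The main fit did not pair by set, because no label ties a set number to a culture or a day. The block changed no call in H9, where 0 members passed in the shRNA comparison under every alternative run. SLC25A36 passed with the block (adjusted p = 0.0159). The EIF2A change of -0.33 ran from -0.88 to 0.0596 with single libraries left out, turning positive without eIF2A set 2. Between the HEK293T sets 0 members became 3 with RLE scaling, 6 with library sizes alone and 1 when genes needed a mean count of 50. Calls over all genes went from 41 higher and 59 lower to 312 and 338, 170 and 751, and 241 and 300 in these settings. Between the H9 sets 15 members became 4 with DESeq2, while over all genes 726 higher and 683 lower became 67 and 58. Leaving out a library leaves no residual degree of freedom in a set comparison with the siRNA or shRNA term, so it was done without that term, an alternative added after the data were seen: 0 members passed between the HEK293T sets in all 4 fits, and 7 to 12 between the H9 sets. A threshold of 20 CPM left 79 members in place of 124, of which 3 rose and 13 fell with the siRNA label. In H9, 10 members had too few reads to be tested.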
